A study of Mus musculus with 36 samples.

Results

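E proteins and their Id inhibitors were read from mRNA-seq of the mouse pre-B cell line B3. The members were the E protein genes Tcf3, Tcf4 and Tcf12 and the inhibitor genes Id1, Id2 and Id3, taken as the rows of the expression table that carry these gene symbols. All 6 had a row among 12762 genes and were kept in the main tests, while a filter on low values, run as an alternative, removed Id1 and Id3. Id4, the remaining Id gene, had no single row under its symbol and was not analysed here.

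E proteins are basic helix-loop-helix (bHLH) transcription factors. They bind DNA as pairs at the E-box, a short motif whose outer letters are CA and TG, and B cell development depends on them, above all on the Tcf3 products E12 and E47. Id proteins have the helix-loop-helix but no basic region, so that an E protein paired with an Id protein cannot hold DNA.

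Both lines were made from B3 cells with a retroviral MSCV vector and sorted for the green fluorescent protein it encodes, so each is a sorted pool and not a clone. The Ikaros line carried HA-tagged Ikaros fused to ERt2, a mutated estrogen receptor domain that moves the protein into the nucleus when 4-hydroxy-tamoxifen (4-OHT) is added. The control line carried ERt2 without Ikaros. Each line was collected at 0, 2, 6, 12, 18 and 24 h with 3 libraries per group, 36 libraries in all. A 4-OHT dose of 0.5 uM stands in the labels of all libraries, whereas the methods describe the 0 h cells as untreated and collected on other occasions, so a comparison with 0 h also compares collections. The 3 replicates of a group came from different numbered batches. The labels give only the number, and the methods describe batches as repeats of the time course, so they are called culture batches here. Whether a number at 0 h stands for the same culture as at later times is not stated. Replicates 1 and 3 were batches 1 and 4 at each time, while replicate 2 was batch 2 at 0 h and batch 3 at each later time. A fit without replicate 2 therefore leaves out both of these batches.

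Levels are log2 values adjusted for gene length and GC content, shifted by one constant throughout, so a difference between libraries is a log2 fold change and a level has no absolute unit. Differences are given as log2 difference ± SE from limma, and a gene was called at a Benjamini-Hochberg adjusted p under 0.05 over all 12762 genes. The number of reads behind each value is unknown. Library medians lay between 11.70 and 11.73. Ikzf1, the gene for Ikaros, served as the check of the line labels and was higher in the Ikaros line by 5.19 to 6.26 (SE 0.18) at the 6 times, vector transcripts included. It was already 36.52-fold higher at 0 h, before the drug was added according to the methods. Of 11 B lineage markers 10 were measured. Their summed level lay between 19.35 and 19.75 in control and between 19.07 and 19.90 in Ikaros libraries. In this sum the most abundant genes weigh most. At 24 h 7 markers were called higher and 2 lower, where 62.9% of all genes were called and 31.0% called higher. The largest excesses were those of Cd22 (4.74 ± 0.46, adjusted p = 1.03e-09) and Cd79b (2.29 ± 0.11, adjusted p = 5.51e-16), while Igll1 and Vpreb1 were lower. Cd22 was already higher at 0 h (5.31 ± 0.46, adjusted p = 3.74e-09).

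Stretches of DNA just before the start sites of Tcf3, Tcf12 and Id2 are shown because these genes were all higher in the Ikaros line at 18 and 24 h and RefSeq gives their promoters. They are minus-strand sequences of GRCm38.p6, the build of the deposited data, printed 5′ to 3′ with the E-box (CANNTG, which reads the same on both strands) in capitals. The Tcf3 stretch is chr10:80433648-80433885, the Tcf12 stretch is chr9:72111872-72112069 and the Id2 stretch is chr12:25096093-25096342. The first 2 lie outside the gene as annotated by GENCODE, and the Id2 stretch lies within an intron of a longer Id2 transcript.
Tcf3: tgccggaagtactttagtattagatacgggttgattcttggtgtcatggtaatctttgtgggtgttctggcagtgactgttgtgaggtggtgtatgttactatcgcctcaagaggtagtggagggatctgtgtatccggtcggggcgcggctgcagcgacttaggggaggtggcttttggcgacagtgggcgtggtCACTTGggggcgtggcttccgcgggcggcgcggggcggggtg
Tcf12: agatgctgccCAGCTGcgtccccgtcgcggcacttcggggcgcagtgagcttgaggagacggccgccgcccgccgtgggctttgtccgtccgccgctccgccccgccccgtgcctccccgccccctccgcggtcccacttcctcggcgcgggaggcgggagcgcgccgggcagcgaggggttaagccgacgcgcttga
Id2: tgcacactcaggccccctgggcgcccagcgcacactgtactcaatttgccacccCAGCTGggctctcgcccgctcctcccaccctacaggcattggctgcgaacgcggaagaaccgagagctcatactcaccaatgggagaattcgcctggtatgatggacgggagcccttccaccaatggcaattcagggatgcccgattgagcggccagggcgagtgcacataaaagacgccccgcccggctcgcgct
Each stretch held 1 E-box. CACTTG began 54 bases before the RefSeq start of Tcf3, and CAGCTG began 240 bases before that of Tcf12 and 196 before that of Id2. An E-box was found in the 250 bases before 66.2% of the 32851 RefSeq starts, so holding one is common. The letters GGGAA, the core bound by Ikaros, were not in these 3 stretches on either strand, while 56.2% of all starts held them in their 250 bases. The Tcf3 and Tcf12 stretches hold 238 and 198 bases, fewer than the 250 behind both shares.

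The members differed widely in level. Over the 36 libraries the mean log2 level was 14.61 for Tcf3, 13.53 for Tcf12, 12.99 for Tcf4, 10.16 for Id2, 8.47 for Id1 and 6.26 for Id3. The 3 E protein genes thus lay at the percentiles 91.6, 80.2 and 72.1 of all genes, and the Id genes Id2, Id1 and Id3 at 30.2, 18.0 and 5.6. Tcf3 lay above every other member in every library, its lowest level being 14.37. Other neighbours in this order overlapped in some groups. Tcf4 and Tcf12 overlapped in Ikaros cells at 0 and 12 h, Id1 and Id2 overlapped in control cells at 12, 18 and 24 h, and Id1 and Id3 overlapped in Ikaros cells at 2 and 6 h.

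Tcf3 encodes the E proteins E12 and E47. It lies on chromosome 10 at 80409514 to 80433647, minus strand, of GRCm38. Its control level stayed between 14.37 and 14.70 in all 18 libraries. In Ikaros cells the values were 14.51, 14.42 and 14.45 at 0 h and 14.59, 14.57 and 14.58 at 2 h, where the lines overlapped. At 6 h they were 14.82, 14.79 and 14.73 against 14.40, 14.45 and 14.37 in control cells, and from this time on every Ikaros library lay above every control library of its time. The log2 difference was 0.38 ± 0.07 at 6 h (adjusted p = 7.69e-05), 0.16 ± 0.07 at 12 h (adjusted p = 0.0569), 0.35 ± 0.07 at 18 h (adjusted p = 8.34e-05) and 0.25 ± 0.07 at 24 h (adjusted p = 0.0022). Tcf3 was thus higher in the Ikaros line at 6, 18 and 24 h, by at most 1.30-fold. With the culture batch as a block the 12 h difference also passed (adjusted p = 0.0471). Within batches the difference was above 0 in 3 of 3 batches at each time from 6 h on, with a range of 0.17 to 0.32 at 24 h. The 24 h call was lost without replicate 2 of every group (0.22, adjusted p = 0.115), and the 6 h call in a fit of the 6 h libraries alone (adjusted p = 0.0755).

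Tcf4 encodes E2-2, the E protein best known from plasmacytoid dendritic cells. It changed direction during the course. At 0 h the Ikaros libraries held 13.62, 13.46 and 12.99 and the control libraries 13.02, 12.92 and 12.46, which overlapped because replicate 3, from batch 4, was the lowest in both lines. Compared within batches, the Ikaros line was higher by 0.53 to 0.60 in 3 of 3. At 2 h the lines overlapped, with 12.63, 12.88 and 12.94 in Ikaros and 12.72, 12.68 and 12.62 in control cells. At 6 h Tcf4 was lower in Ikaros cells, at 12.49, 12.43 and 12.46 against 12.91, 12.84 and 12.78. At 12 h it was higher, at 13.50, 13.47 and 13.77 against 12.62, 12.66 and 12.55, and it stayed so at 18 h (13.67, 13.40 and 13.44 against 12.62, 12.52 and 12.93) and 24 h (13.65, 13.82 and 13.75 against 12.78, 12.77 and 12.80). From 6 h on the groups of a time did not overlap.

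The tests followed this course. The Tcf4 difference was 0.56 ± 0.14 at 0 h (adjusted p = 0.00951), 0.15 ± 0.14 at 2 h (adjusted p = 0.526), and -0.38 ± 0.14 at 6 h (adjusted p = 0.0329). It was 0.97 ± 0.14 at 12 h (adjusted p = 2.04e-06), 0.81 ± 0.14 at 18 h (adjusted p = 1.48e-05) and 0.96 ± 0.14 at 24 h (adjusted p = 1e-06), near a 2-fold excess. Part of this excess was there at 0 h. Since 0 h the difference had moved by 0.41 ± 0.20 at 12 h (adjusted p = 0.116) and 0.26 ± 0.20 at 18 h (adjusted p = 0.307). At 24 h it had moved by 0.41 ± 0.20 (adjusted p = 0.0905), and none of these changes was called. The change of the difference from 6 to 12 h, a contrast chosen after its opposite signs were seen, was 1.35 ± 0.20 (adjusted p = 6.51e-05), and Tcf4 was the 1 member called in it against 16.0% of all genes. Both early calls were lost in fits that left out replicate 1 or replicate 2 and so held 2 libraries per group, although the estimates changed little. Without replicate 1 the 0 h difference was 0.54 (adjusted p = 0.156) and the 6 h difference -0.36 (adjusted p = 0.177), and without replicate 2 they were 0.56 (adjusted p = 0.303) and -0.37 (adjusted p = 0.24).

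Tcf12 encodes HEB, the E protein that pairs with E2A in early lymphocytes. The gene lies on chromosome 9 at 71842688 to 72111871, minus strand, and overlaps 7 other annotated genes on its own strand and 4 on the other, so that some fragments may be assigned otherwise. Control and Ikaros libraries overlapped at 0, 2, 6 and 12 h, with differences between -0.05 and 0.13 (SE 0.14) and no call. At 18 h the Ikaros libraries held 14.04, 13.88 and 13.82 and the control libraries 13.42, 13.23 and 12.93. At 24 h they held 14.02, 13.90 and 13.92 against 13.44, 13.43 and 13.23. The log2 difference was 0.72 ± 0.14 at 18 h (adjusted p = 0.000115) and 0.58 ± 0.14 at 24 h (adjusted p = 0.000987), and the groups did not overlap. Within batches it ranged from 0.62 to 0.89 and from 0.48 to 0.69. Part of the 18 h difference lay in the control cells, whose mean was 13.53 ± 0.08 (SD, n = 3) at 0 h and 13.19 ± 0.25 (SD, n = 3) at 18 h, a change that was not called (adjusted p = 0.277). In Ikaros cells the change against 0 h was 0.29 ± 0.14 at 18 h (adjusted p = 0.0873) and 0.33 ± 0.14 at 24 h (adjusted p = 0.0523), neither called. Tcf12 differed between batches, since 11 of the 12 libraries of batch 1 lay above their group mean and 2 of the 12 of batch 4.

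**Figure D1:**
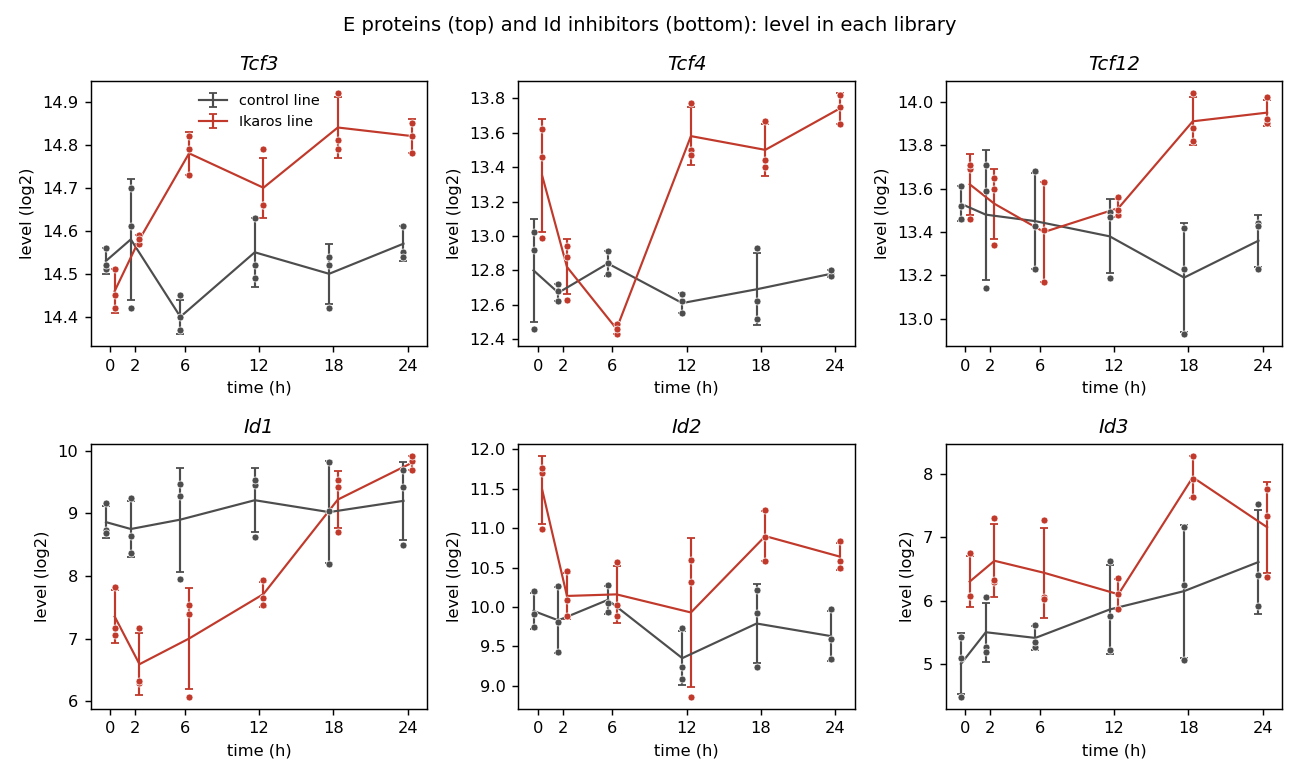
Log2 level of each E protein gene (top) and Id gene (bottom) against time in hours, with a point for each library, a line through the group means and bars of 1 SD (n = 3); each panel has its own level axis. Tcf4 dips to 12.46 in Ikaros cells at 6 h before it stands above control cells from 12 h on, and Id1 climbs from 6.59 at 2 h to 9.81 at 24 h.

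Id1, on chromosome 2 at 152736251 to 152737410 (plus strand), encodes the founding Id protein. It was lower in the Ikaros line through the first 12 h and no longer so afterwards. At 0 h the Ikaros libraries held 7.83, 7.05 and 7.17 and the control libraries 8.74, 9.16 and 8.69. At 2 h they held 7.17, 6.29 and 6.32 against 8.37, 8.64 and 9.24, and at 6 h 7.40, 7.53 and 6.07 against 7.95, 9.28 and 9.47. At 12 h they held 7.65, 7.54 and 7.94 against 8.62, 9.45 and 9.54. Each Ikaros library up to 12 h lay below each control library of its time. At 18 h (9.54, 9.42 and 8.70 against 8.19, 9.04 and 9.82) the groups overlapped, and at 24 h the Ikaros libraries held 9.83, 9.91 and 9.69 against 8.50, 9.69 and 9.42. The lowest Ikaros and the highest control library of 24 h both round to 9.69.

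For Id1 the log2 difference was -1.51 ± 0.43 at 0 h (adjusted p = 0.0253), -2.15 ± 0.43 at 2 h (adjusted p = 0.000638), -1.90 ± 0.43 at 6 h (adjusted p = 0.00101) and -1.50 ± 0.43 at 12 h (adjusted p = 0.00569). The 2 h value is a 4.45-fold lower level. At 18 h it was 0.20 ± 0.43 (adjusted p = 0.705) and at 24 h 0.61 ± 0.43 (adjusted p = 0.223), neither called. The gap was there at 0 h already. Relative to it the difference had moved up by 1.72 ± 0.61 at 18 h (adjusted p = 0.0244) and by 2.12 ± 0.61 at 24 h (adjusted p = 0.00521). Between 2 and 24 h, which uses no 0 h library, it moved by 2.76 ± 0.61 (adjusted p = 0.000514). Within batches Id1 was lower in 3 of 3 at each time up to 12 h, but by unequal amounts, from -3.41 to -0.56 at 6 h. Without replicate 2 the calls at 0 h (-1.22, adjusted p = 0.637), 2 h (-2.06, adjusted p = 0.0738) and 12 h (-1.29, adjusted p = 0.144) were lost. Without replicate 3 the calls at 0 h (-1.51, adjusted p = 0.0639) and 6 h (-1.15, adjusted p = 0.0691) were lost.

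Id2, on chromosome 12 at 25093799 to 25097140 (minus strand), encodes the Id protein required for innate lymphoid cells. It was the most abundant Id gene by mean level. At 0 h the Ikaros libraries held 11.70, 11.77 and 10.99, above the control libraries at 10.20, 9.75 and 9.91. At 2 h the values were 10.46, 9.88 and 10.09 against 9.43, 9.81 and 10.26, and at 6 h 10.57, 9.88 and 10.03 against 9.93, 10.05 and 10.28, so the excess was gone and the groups overlapped. At 12 h they were 10.60, 10.32 and 8.86 against 9.08, 9.73 and 9.24. The last of these Ikaros values, replicate 3, was the lowest of all 36 libraries. At 18 h the Ikaros libraries, at 11.23, 10.58 and 10.89, again lay above the control libraries at 9.24, 9.92 and 10.21, and likewise at 24 h (10.58, 10.84 and 10.50 against 9.59, 9.97 and 9.34).

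Id2 was called higher at 0 h (1.54 ± 0.33, adjusted p = 0.00279), at 18 h (1.11 ± 0.33, adjusted p = 0.00572) and at 24 h (1.01 ± 0.33, adjusted p = 0.0106). The differences at 2 h (0.31 ± 0.33), 6 h (0.07 ± 0.33) and 12 h (0.58 ± 0.33, adjusted p = 0.162) did not pass. Without replicate 3 the 12 h difference was 1.06 and passed (adjusted p = 0.0142). From 0 to 2 h the Ikaros line changed by -1.35 ± 0.33 (adjusted p = 0.00597) and control cells by -0.12 ± 0.33 (adjusted p = 0.928). The change of the difference between the lines over these times was -1.23 ± 0.47 and did not pass (adjusted p = 0.213). The calls at 0 h (1.29, adjusted p = 0.269) and 24 h (1.08, adjusted p = 0.0717) were lost without replicate 2, and the one at 18 h without replicate 1 (0.67, adjusted p = 0.167).

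Id3, on chromosome 4 at 136143497 to 136145755 (plus strand), encodes an Id protein that restrains E2A in lymphocytes and is mutated in Burkitt lymphoma. It was the scarcest member. At 0 h the Ikaros libraries held 6.76, 6.07 and 6.07 and the control libraries 4.48, 5.09 and 5.42. At 2 h they held 6.29, 6.32 and 7.30 against 5.26, 5.19 and 6.05, and at 6 h 6.05, 6.02 and 7.27 against 5.26, 5.34 and 5.62. At these 3 times the groups did not overlap, yet no difference was called (1.30 ± 0.48, 1.14 ± 0.48 and 1.04 ± 0.48, adjusted p = 0.102, 0.102 and 0.0907). With the culture batch as a block all 3 passed, with adjusted p = 0.0181, 0.024 and 0.023. Batch 4 was high for this gene, since 10 of its 12 libraries lay above their group mean, by 0.48 on average over the 12.

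The clearest Id3 difference came at 18 h. The Ikaros libraries held 7.92, 7.64 and 8.29 and the control libraries 5.06, 6.24 and 7.16, a log2 difference of 1.80 ± 0.48 (adjusted p = 0.00214) or 3.49-fold, with no overlap. It was lost by a narrow margin without replicate 1 (1.27, adjusted p = 0.0504). At 12 h (6.35, 6.10 and 5.86 against 5.22, 5.75 and 6.62) and at 24 h (6.37, 7.34 and 7.76 against 5.92, 6.40 and 7.52) the groups overlapped. Id3 also drifted in control cells, from 5.00 ± 0.48 (SD, n = 3) at 0 h to 6.61 ± 0.82 (SD, n = 3) at 24 h, and this was not called (1.61 ± 0.48, adjusted p = 0.159).

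**Figure D2:**
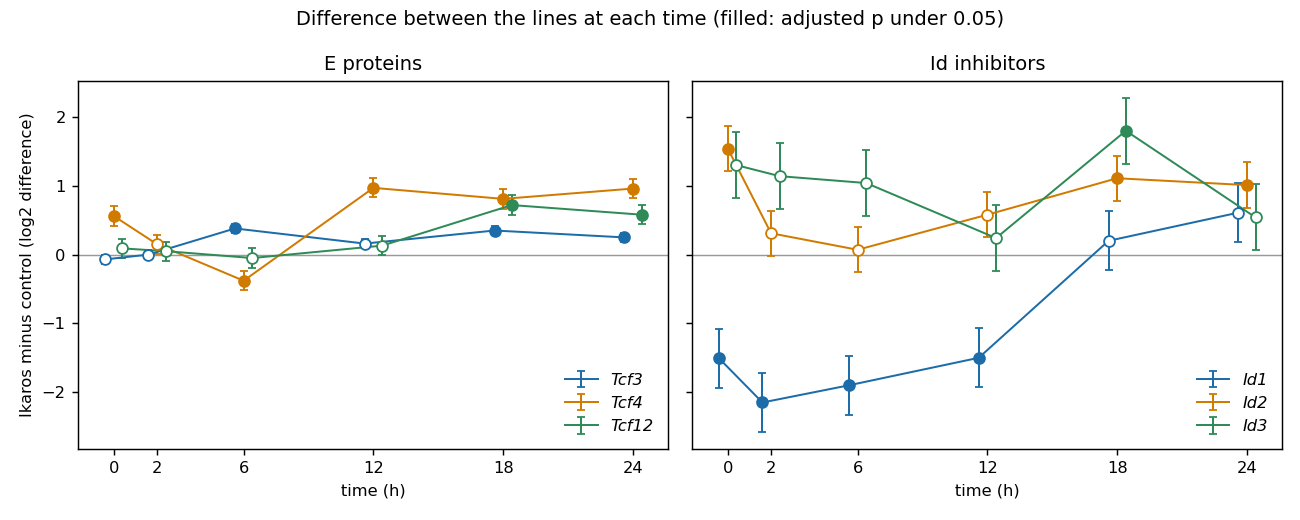
Ikaros minus control log2 difference of each member against time in hours with bars of 1 SE from limma; filled points are called at an adjusted p under 0.05. The 3 E proteins (left) lie above 0 at 18 and 24 h, and Id1 (right) runs from -2.15 at 2 h to 0.61 at 24 h while Id2 starts at 1.54.

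Counted together, the members called between the lines were 3 of 6 at 0 h, 1 of 6 at 2 h, 3 of 6 at 6 h, 2 of 6 at 12 h, 5 of 6 at 18 h and 4 of 6 at 24 h. Of all genes, 8.33%, 19.1%, 37.3%, 45.8%, 58.2% and 62.9% were called at these times. Up to 12 h the called members went in both directions, namely 2 higher and 1 lower at 0 h, and 1 higher and 2 lower at 6 h. All calls at 18 and 24 h were higher in the Ikaros line, whereas 29.0% and 31.0% of all genes were called higher. The median difference of the 6 members was 0.76 at 18 h and 0.60 at 24 h, beside -0.02 and -0.01 over all genes. With 6 members these counts describe the set and were not tested as one.

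The change of the line difference since 0 h was called for 0, 3, 0, 3 and 3 of 6 members at 2, 6, 12, 18 and 24 h, and for 3.1%, 15.9%, 29.7%, 43.0% and 48.4% of all genes. Where limma called 0 members, at 2 and 12 h, 2 members each had an unadjusted p under 0.05. At 6 h the called changes were those of Tcf3 (0.45 ± 0.10, adjusted p = 0.00154), Tcf4 (-0.94 ± 0.20, adjusted p = 0.00133) and Id2 (-1.46 ± 0.47, adjusted p = 0.034). At 18 and 24 h they were those of Tcf3, Tcf12 and Id1. From 2 to 24 h the difference moved up in 4 of 6 members, Tcf3, Tcf4, Tcf12 and Id1, and in 47.3% of all genes in either direction. For Id2 and Id3 the change from 0 to 24 h was -0.53 ± 0.47 (adjusted p = 0.375) and -0.76 ± 0.68 (adjusted p = 0.372), neither called. Without replicate 2 each call since 0 h was lost (adjusted p = 0.0994 to 0.407), as were those of Tcf3, Tcf4 and Tcf12 from 2 to 24 h (adjusted p = 0.375, 0.0617 and 0.183). The change of Id1 from 2 to 24 h kept its call without each replicate. Quantile normalization lost the change of Tcf12 from 0 to 24 h (0.48, adjusted p = 0.0536), and fits of only the compared groups lost those of Tcf3 and Tcf12 from 2 to 24 h (adjusted p = 0.154 and 0.0681). Without replicate 1 the calls of Tcf3, Tcf4 and Id2 at 6 h, of Id1 at 18 h, and of Tcf3 and Tcf12 at 24 h and from 2 to 24 h were lost (adjusted p = 0.0524 to 0.322). Without replicate 3 the changes of Tcf4 at 18 and 24 h passed as well (adjusted p = 0.0428 and 0.0377).

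Control cells gave the background of drug and culture. No member was called in them against their own 0 h, with 0 of 6 at each later time, where limma called 0.047%, 5.1%, 0.0549%, 0.478% and 0.47% of all genes at 2, 6, 12, 18 and 24 h. An unadjusted p under 0.05 was reached by 0 members at 2, 6 and 12 h, by 2 at 18 h (Tcf12 and Id3) and by 1 at 24 h (Id3). In Ikaros cells the members called against 0 h numbered 2, 3, 2, 3 and 4 of 6 at these times, beside 19.2%, 32.8%, 46.1%, 54.6% and 60.6% of all genes. Tcf3 was higher than at 0 h from 6 h on, Id2 was lower at 2, 6, 12 and 24 h, Tcf4 was lower at 2 and 6 h and higher at 24 h, Id1 was higher at 18 and 24 h, and Id3 was higher at 18 h. Without replicate 2, 9 of these 14 calls were lost (adjusted p = 0.0566 to 0.179), while those of Tcf4 at 6 h, Tcf3 at 18 and 24 h, Id2 at 12 h and Id1 at 24 h were kept. Without replicate 1 those of Tcf4 at 2 h, Tcf3 at 12 h and Id2 at 24 h were lost (adjusted p = 0.262, 0.0761 and 0.145), and without replicate 3 that of Tcf4 at 24 h (adjusted p = 0.111). Fits of only the compared groups lost Tcf4 at 2 and 24 h, Tcf3 at 6 and 12 h and Id2 at 12 h (adjusted p = 0.0518 to 0.147) and let Tcf12 pass at 24 h (adjusted p = 0.0328). With the culture batch as a block the 2 h comparison called 3720 genes in place of 2444, and Tcf12 at 6 h (-0.29, adjusted p = 0.0432) and Id3 at 24 h (0.89, adjusted p = 0.0471) passed as well.

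From one time to the next in Ikaros cells, members were called in 3 steps. Between 0 and 2 h Tcf4 fell by 0.54 on the log2 scale (SE 0.14, adjusted p = 0.00815) together with Id2, 2 of 6 members against 19.2% of all genes. This step also compares collections, and the change of the line difference was not called for Tcf4 (-0.41 ± 0.20, adjusted p = 0.376) or Id2. The Tcf4 call was lost without replicate 1 or 2 and in a fit of the 2 groups alone (adjusted p = 0.262, 0.159 and 0.147). That of Id2 was lost without replicate 2 (adjusted p = 0.178). Between 2 and 6 h 0 members were called against 11.2% of all genes, with 2 at an unadjusted p under 0.05, and Tcf3 passed with the culture batch as a block (0.20, adjusted p = 0.0404). Between 6 and 12 h Tcf4 rose by 1.12 ± 0.14 (adjusted p = 3.2e-06) as the 1 member called, against 20.8% of all genes. Between 12 and 18 h 4 of 6 members rose, while 25.5% of all genes were called and 12.0% were called higher. These were Tcf12 (0.40 ± 0.14, adjusted p = 0.0418), Id1 (1.51 ± 0.43, adjusted p = 0.011), Id2 (0.97 ± 0.33, adjusted p = 0.0329) and Id3 (1.85 ± 0.48, adjusted p = 0.00545). Between 18 and 24 h 0 members were called, with 0 at an unadjusted p under 0.05, against 5.77% of all genes.

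In this step from 12 to 18 h all 3 Id genes rose. The calls depended on the replicates. Without replicate 2 none of the 4 passed (adjusted p = 0.3, 0.214, 0.0986 and 0.12 for Tcf12, Id1, Id2 and Id3), without replicate 1 Tcf12 and Id2 did not (adjusted p = 0.182 and 0.0627), and without replicate 3, which held the low 12 h value, Id2 did not (0.44, adjusted p = 0.343). In a fit of the 2 groups alone Id2 was not called (adjusted p = 0.206). Id2 was also the 1 called member of this step whose groups overlapped.

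The Id genes were then set against the E proteins by summing their unlogged levels in each library, as a description on the length-adjusted scale with no test. In control cells the Id sum was 3.52% ± 0.204 (SD, n = 3) of the E protein sum at 0 h and between 3.28% and 4.17% at the later times. In Ikaros cells it was 6.97% ± 1.65 (SD, n = 3) at 0 h, with 7.47%, 8.31% and 5.13% in the 3 libraries, above the control libraries at 3.75%, 3.39% and 3.41%. Its means were 3.10% ± 0.647, 3.13% ± 0.532 and 2.73% ± 1.09 at 2, 6 and 12 h (SD, n = 3 each). They were 4.95% ± 0.564 and 4.55% ± 0.365 at 18 and 24 h (SD, n = 3 each). After 0 h the lines overlapped at each time. Compared within culture batches, the Ikaros library was the higher one in 1 of 3 batches at 2, 6 and 12 h, in 2 of 3 at 18 h and in 3 of 3 at 24 h, where it held 4.33%, 4.97% and 4.35% against 2.83%, 4.58% and 3.64%. Id2 and all 3 E proteins, which stand on opposite sides of this ratio, were called higher in Ikaros cells at 18 and 24 h. In control cells the 18 h libraries spread from 2.28% to 5.64%, with batch 1 the lowest at each time after 0 h.

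Within the Id sum the make-up differed between the lines. Id2 made up 92.0% ± 2.22 of it in Ikaros cells at 0 h and 66.3% ± 6.96 in control cells (SD, n = 3). The Id1 share in Ikaros cells was 5.39% ± 1.56, 7.33% ± 1.41, 10.1% ± 5.11, 18.3% ± 11.8, 22.0% ± 6.22 and 34.0% ± 1.89 at 0, 2, 6, 12, 18 and 24 h, against 30.4% to 45.3% in control cells (SD, n = 3 each). By 24 h the Ikaros libraries, at 32.6% to 36.1%, lay inside the control range of 30.3% to 45.3%. Id3 never exceeded 12.2% of the sum in a library. Among the E proteins Tcf3 made up 63.1% ± 1.84 of the sum in Ikaros cells at 6 h, when Tcf4 was at 12.6% ± 0.69, and 49.4% ± 0.392 at 24 h, when Tcf4 was at 23.5% ± 1.24. In control cells the Tcf3 share stayed between 53.9% and 58.9%.

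**Figure D3:**
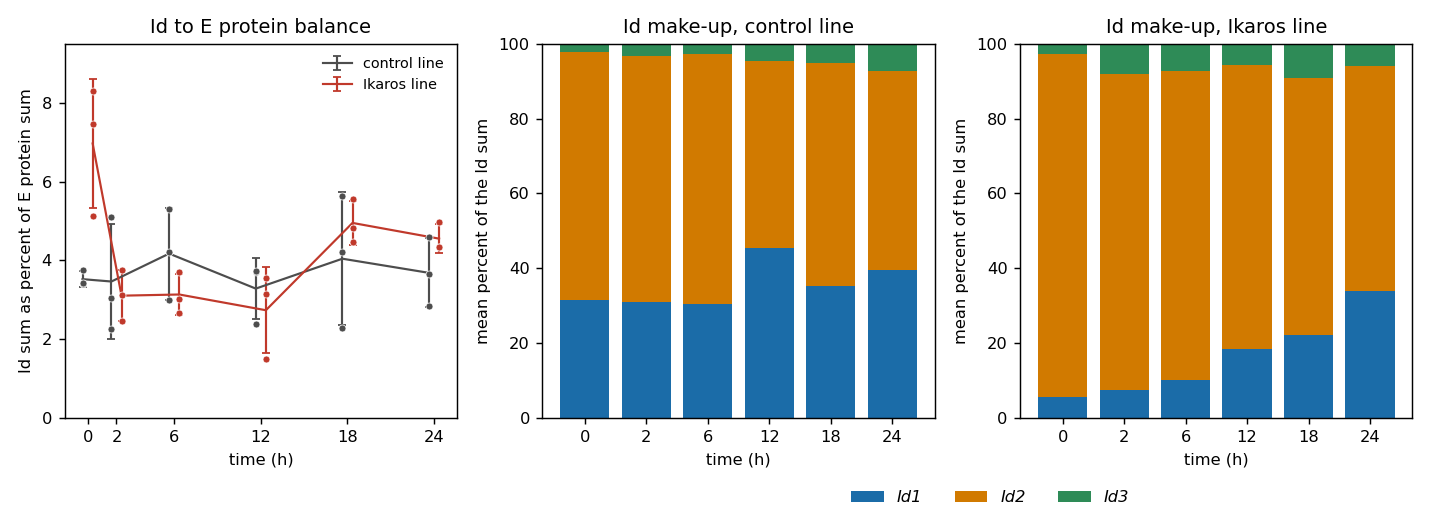
Left, the summed unlogged level of Id1, Id2 and Id3 as a percentage of that of the 3 E proteins against time in hours, with points for libraries and bars of 1 SD (n = 3); middle and right, the mean share of each Id gene in the Id sum in each line. The Ikaros line stands at 6.97% at 0 h and 2.73% at 12 h, and its Id1 share goes from 5.39% to 34.0%.

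Members of one family ran in parallel only in part, the E protein genes more so than the Id genes. Over the 36 libraries Pearson's r was 0.60 between Tcf4 and Tcf12, 0.57 between Tcf3 and Tcf12 and 0.44 between Tcf3 and Tcf4, but -0.10 between Id1 and Id2, 0.09 between Id1 and Id3 and 0.41 between Id2 and Id3. Across the families the highest value was 0.54, between Tcf3 and Id3. These libraries share lines, times and batches, so r is given as a description.

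For each member the 3 genes most like it and the 1 least like it over the 36 libraries were listed by r. Tcf3 ran closest to Crlf2, a subunit of the TSLP receptor (0.896), Sumf1, which activates sulfatases (0.891), and Cdkn2d, a CDK inhibitor (0.888), and was most opposed to Pomt1, a mannosyltransferase (-0.893). Tcf4 ran with the lysosomal lipase Lipa (0.874), the receptor Tnfrsf19 (0.871) and the filament gene Vim (0.864) and against Slmo2 (-0.911). Tcf12 ran with Trak1, an adaptor for mitochondrial transport (0.931), the calpain Capn5 (0.898) and Vcpip1, a deubiquitinase (0.896), and against Aven, a cell death inhibitor (-0.913). Of all these pairs, Tcf12 and Trak1 had the highest r.

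Id1 ran with Bcl2l1, the gene of the survival protein Bcl-xL (0.874), the kinase gene Pim1 (0.874) and Pgm2l1 (0.862). Pim1 was also lower in the Ikaros line than in control cells at 0 h (-1.62) and higher at 24 h (0.38). The gene most opposed to Id1 was Pik3r6, a PI3K subunit, whose Ikaros minus control difference was 0.80 at 0 h and -0.72 at 24 h (r -0.846). These differences are given as values without a test. Id2 ran with the kinesin gene Kif5a (0.862), the ephrin receptor gene Epha2 (0.79) and the cytokine gene Il33 (0.774), which stood 2.62, 3.97 and 3.63 higher in Ikaros cells already at 0 h. The gene most opposed to Id2 was Btbd10 (-0.746). Id3 ran with Uchl1, a deubiquitinase (0.80), Mpnd (0.762) and Ccdc150 (0.752) and against Srpr, a subunit of the signal recognition particle receptor (-0.785).

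The genes that work with E proteins and Id proteins were followed in lists, whose counts stand beside the 62.9% of all genes called at 24 h and the 31.0% called higher. Of 5 measured bHLH partners and their complex, which join E proteins on DNA in other blood lineages, 1 was higher and 4 were lower in Ikaros cells at 24 h, with a median difference of -1.86. Tal1, which pairs with E proteins in T cell leukaemia, stood at 10.91 ± 0.25 in control and 8.91 ± 0.25 (SD, n = 3) in Ikaros cells at 2 h, a difference of -2.00 ± 0.22, and at -4.47 ± 0.22 below control cells at 24 h (adjusted p = 2.55e-15). Its bridging partner Lmo2 stood higher at 0 h (0.96 ± 0.16) and lower at 24 h (-2.51 ± 0.16, adjusted p = 4.21e-13). Bhlha15, known as Mist1, was higher at 24 h (0.79 ± 0.31, adjusted p = 0.0318).

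Among 6 measured cofactors, the acetyltransferases and corepressors that E proteins recruit, 4 were higher and 1 was lower at 24 h, with a median of 0.95. The acetyltransferase gene Kat2b (1.28 ± 0.14, adjusted p = 5.13e-09) and the corepressor gene Cbfa2t3 (1.13 ± 0.11, adjusted p = 1.35e-09) were higher, the latter at all 6 times. Kat2a, the close relative of Kat2b, was lower (-1.96 ± 0.11, adjusted p = 1.19e-14). Of 3 E-box repressors, zinc finger factors that occupy the same motif, 2 were higher at 24 h, namely Zeb2 (1.86 ± 0.14, adjusted p = 4.02e-12), which had been lower at 2 h (-0.66 ± 0.14), and Snai1 (1.85 ± 0.62, adjusted p = 0.0119).

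Of 18 genes known as E protein targets in B cell precursors, 1, 3, 4, 9, 11 and 11 were higher at 0, 2, 6, 12, 18 and 24 h, and 3, 5, 8, 3, 3 and 4 were lower. Of all genes 8.33%, 19.1%, 37.3%, 45.8%, 58.2% and 62.9% were called in either direction at these times, and 29.0% and 31.0% were called higher at 18 and 24 h. Their median difference went from -0.25 at 6 h to 0.44 at 12 h and 1.07 at 24 h, beside -0.01 over all genes at these times. The largest rises at 24 h were those of Rag1, a subunit of the V(D)J recombinase (5.19 ± 0.29, adjusted p = 2.52e-14), Blnk, the adaptor of pre-B receptor signalling (4.14 ± 0.19, adjusted p = 4.19e-16), and Gfi1, a repressor (2.70 ± 0.52, adjusted p = 6.47e-05). The largest falls were those of the surrogate light chain genes Igll1 (-3.96 ± 0.20, adjusted p = 1.95e-15) and Vpreb1 (-3.42 ± 0.25, adjusted p = 4.8e-12), followed by Vpreb3 (-0.65 ± 0.26, adjusted p = 0.0345). Genes on the same list thus moved in opposite directions. Vpreb1 has a near-identical relative and is uncertain for that reason.

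Signals of the BMP and TGF-beta pathway drive Id genes in many cells. Of its 12 measured genes 10 were higher and 1 lower at 24 h, with a median of 0.88, where 62.9% of all genes were called and 31.0% called higher. The 10 included Smad7, Smurf1 and Smurf2, which restrain the pathway, so the count gives no direction of signalling. Pathway activity was not tested. The receptor genes Tgfbr2 (2.08 ± 0.22, adjusted p = 5.31e-09) and Bmpr2 (1.80 ± 0.48, adjusted p = 0.00201) were higher, and the ligand gene Tgfb1 was lower (-0.97 ± 0.09, adjusted p = 1.76e-10). Some of these differences were called at 0 h already. Acvr2a (1.58 ± 0.34), Tgfbr2 (0.73 ± 0.22) and Smurf2 (0.38 ± 0.09) were higher then, and Tgfb1 was lower (-0.47 ± 0.09). Of 4 genes around the Egr factors, which drive Id3 downstream of the antigen receptor, 2 were lower at 24 h, Nab2, a corepressor of Egr proteins (-2.74 ± 0.18, adjusted p = 6.01e-13), and Egr1 (-2.02 ± 0.78, adjusted p = 0.0268). These 2 of 4 stand against 62.9% of all genes. Egr3 was lower at 2, 12 and 18 h, and Egr2 was higher at 12 h (1.57 ± 0.48, adjusted p = 0.0091). Of 6 genes that act on the stability of Id and E proteins, 1 was higher and 2 were lower at 24 h, with a median of 0.04. The 3 called of 6 were no larger a share than the 62.9% of all genes, so the counts say nothing particular about this list. Usp1, which removes ubiquitin from Id proteins, was lower (-0.79 ± 0.16, adjusted p = 0.000115), its cofactor Wdr48 was higher (0.37 ± 0.10, adjusted p = 0.00216) and Cdc20 was lower (-0.30 ± 0.09, adjusted p = 0.00611).

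**Figure D4:**
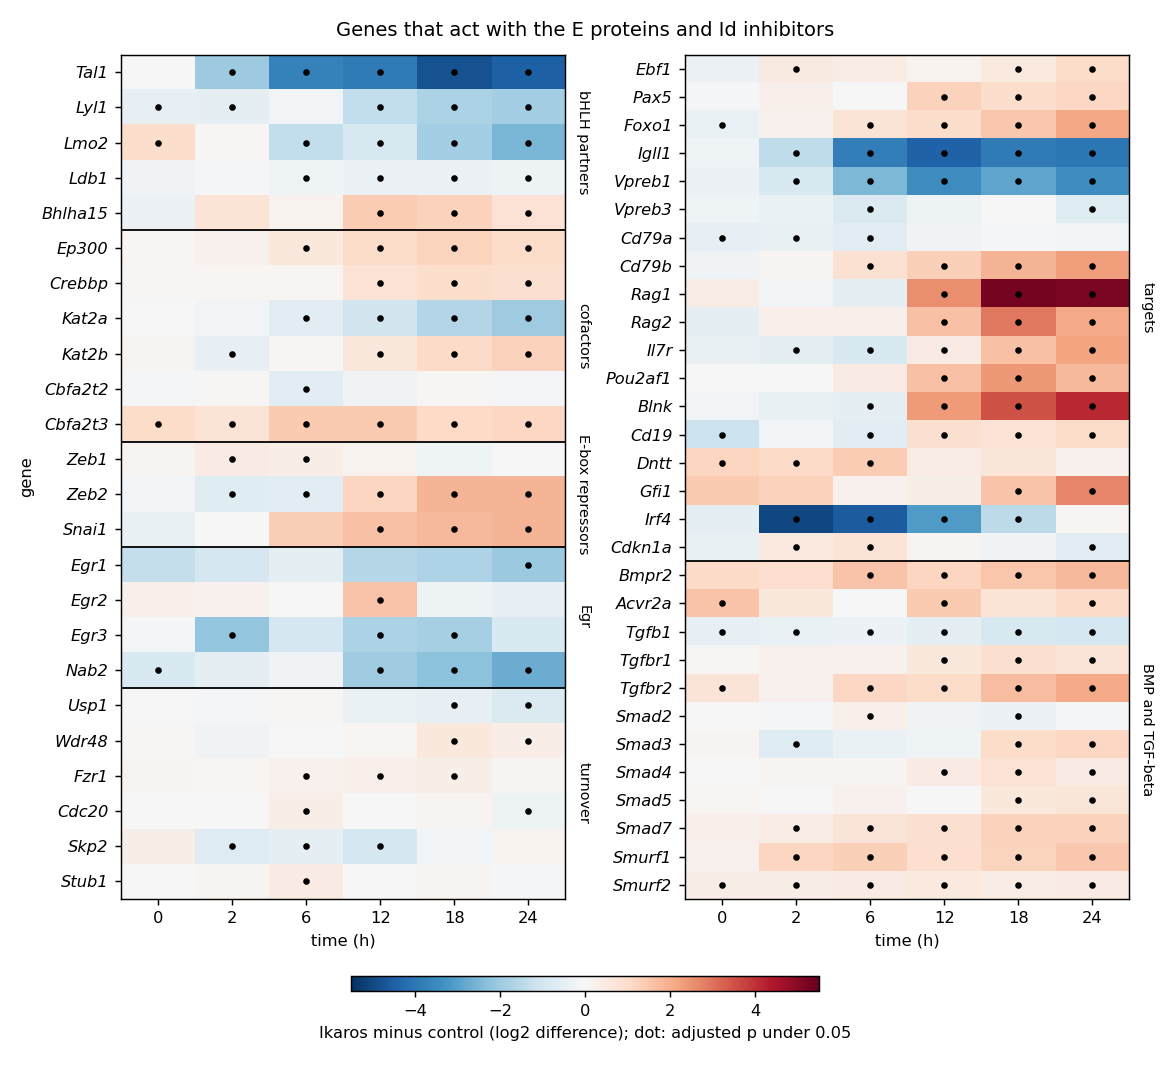
Ikaros minus control log2 difference (colour) at each time in hours for the genes of 7 lists around the E proteins and Id inhibitors; a dot marks an adjusted p under 0.05. Tal1 is lower from 2 h on, Rag1 and Blnk stand highest at 24 h with 5.19 and 4.14, and Igll1 is at -3.96.

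Id genes are also expressed in other blood cells, and markers of these were read in the same libraries. Of the T cell markers 2 of 11 were measured, of the myeloid markers 4 of 9, of the erythroid markers 3 of 6, of the NK and innate lymphoid markers 1 of 5 and of the stromal markers 0 of 5. The summed myeloid level ranged from 9.43 to 11.22 in control and from 10.35 to 11.77 in Ikaros libraries, and at 24 h 1 of its 4 genes was higher and 1 was lower. Summed T cell markers ranged from 10.85 to 11.25 and from 10.31 to 11.77, erythroid markers from 8.13 to 9.10 and from 7.32 to 9.06, and the single NK marker Klrb1c from 4.16 to 6.95 and from 2.64 to 7.43. Among the called differences of these markers, Lyz2, a myeloid lysozyme gene, was higher in the Ikaros line at 0 and 2 h (2.94 ± 0.56 and 2.66 ± 0.56), with Cd68 and Fcer1g at 2 h, and lower from 12 h on (-2.94 ± 0.56 at 24 h). Itgam, an integrin gene, was higher from 6 h on, by 2.65 to 4.52 (SE 0.54), and Cd68 was higher at 12 h (0.92 ± 0.33). The T cell kinase gene Lck was higher at 0 h (0.71 ± 0.12), where Tcf4 and Id2 were also higher, and lower at 12 and 18 h. Gata3 was higher from 6 h on, by 1.32 to 1.91 (SE 0.52). Klrb1c was higher at 18 h (1.98 ± 0.69). Of the erythroid markers, Hbb-b1 was lower at 0, 2 and 6 h (-2.13 ± 0.48 at 2 h) and Klf1 at 6 h (adjusted p = 0.0212). The part of these cells in the members' differences was not tested. In RNA from whole cultures, a changed share of cells and a changed amount of RNA per cell cannot be told apart.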

How the data were processed

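Messenger RNA of 36 B3 libraries was measured by strand-specific sequencing. According to the methods of the study, the authors aligned trimmed reads to mm10 with TopHat2, counted genes with HTSeq, normalized with cqn for GC content and length, and adjusted for library preparation with ComBat. The values the authors deposited are log2 levels, the scale of cqn, shifted by a constant to a minimum of 1. The table itself does not name the base. No counts were used here, so depth is unknown, and precision is limited by 3 libraries per group. Adjustment before deposition may make the standard errors too small.

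The members and all gene lists were chosen with earlier results of these data known. A mean for each of the 12 groups was fitted to all 12762 genes by the lmFit, contrasts.fit and eBayes functions of limma 3.58.1 (R 4.3.3), two-sided, with Benjamini-Hochberg adjustment over all genes and a threshold of 0.05. The study states no such test. The fit was tested on simulated data. The labels give each library a batch number, shared by both lines, so the batch pairs libraries. Deviations of paired libraries from their group means correlated across genes between -0.062 and 0.507 over the 18 pairs (median 0.128), 12 of them above 0.1. P-values measure the spread between these batches of one cell stock.

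Genes named beside the members were Ikzf1, the 3 genes with the highest and the 1 with the lowest r to each member, and in each list the 2 called genes with the largest rise and the 2 with the largest fall at 24 h (3 each among the targets). Outside this rule, Acvr2a, Smad7, Smurf1, Smurf2, Egr2, Egr3 and cell type markers called only at other times, Klrb1c among them, were named after their values were seen. For the Id to E protein balance, values were unlogged, summed over Id1, Id2 and Id3 and over Tcf3, Tcf4 and Tcf12, and divided. Gene positions came from GENCODE M21 on GRCm38. RefSeq promoters matched 4 of 6 members. Sums, correlations and figures were made with numpy 2.4.6, pandas 2.3.3 and matplotlib 3.10.9. The alternatives added the culture batch to the model (replicate block), kept the 9571 genes above the 25th percentile of mean level, applied quantile normalization or a robust eBayes with a trend, restricted the fit to the groups compared, or left out each replicate in turn. The 6 to 12 h contrast and within-batch differences were added after the data were seen.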

Additional observations from a re-analysis of the deposited data

Results flagged for a closer look

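The Ikaros minus control difference of 5 members changed between times by the test of the change itself (limma, adjusted p under 0.05 over all genes). For Tcf3 it moved up by 0.45 from 0 to 6 h, 0.42 from 0 to 18 h, 0.32 from 0 to 24 h and 0.25 from 2 to 24 h. For Tcf4 it moved by -0.94 from 0 to 6 h, 1.35 from 6 to 12 h (a contrast chosen after its opposite signs were seen) and 0.81 from 2 to 24 h. For Tcf12 it moved by 0.63 from 0 to 18 h, 0.50 from 0 to 24 h and 0.54 from 2 to 24 h. For Id1 it moved by 1.72 from 0 to 18 h, 2.12 from 0 to 24 h and 2.76 from 2 to 24 h. For Id2 it moved by -1.46 from 0 to 6 h. The comparisons with 0 h share its libraries and also compare collections. Without replicate 2, 12 of these 14 changes were no longer called, and fits of only the compared groups lost those of Tcf3 and Tcf12 from 2 to 24 h. Groups of 3 libraries were not examined for single outlying libraries.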

How the results depend on the processing

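No member changed sign in a called difference under any alternative run. Over the line differences at the 6 times, 250 results of members under an alternative stayed on their side of the threshold, 18 were lost and 8 gained. Over the changes of these differences and the comparisons within a line, 904 stayed, 49 were lost and 13 gained. The low-value filter removed Id1 and Id3, which therefore have no value under it, and called 701 genes at 0 h in place of 1063. Under the replicate block by culture batch, Id3 passed at 0 h (1.30), 2 h (1.14) and 6 h (1.04) and Tcf3 at 12 h (0.16). Beside these and the calls gained for Tcf12 at 6 h and Id3 at 24 h against 0 h and for Tcf3 between 2 and 6 h, the block changed no other call of a member. It moved the genes called in control cells against 0 h from 651 to 2585 at 6 h and from 61 to 129 at 18 h. Quantile normalization let Id3 pass at 6 h (1.36) and Tcf3 between 2 and 6 h (0.21), and lost the change of Tcf12 from 0 to 24 h (0.48, adjusted p = 0.0536). The low-value filter and the trend and robust fit let Tcf12 pass in Ikaros cells at 24 h against 0 h (adjusted p = 0.0449 and 0.044). Fits of only the compared groups, which have fewer samples, lost Tcf4 at 0 h (0.56), Tcf3 (0.38), Tcf4 (-0.38) and Id1 (-1.90) at 6 h, gained Id3 at 0 h (1.30), lost 8 calls among the changes and the comparisons within Ikaros cells, Tcf3 from 2 to 24 h among them (0.25, adjusted p = 0.154), and called 860 genes at 2 h, 2150 at 6 h, 257 for the change from 0 to 2 h and 509 for the change from 6 to 12 h.

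Fits without one replicate of every group, which hold 2 libraries per group, gave these ranges for calls that changed. At 0 h Tcf4 ranged from 0.54 to 0.57, Id1 from -1.81 to -1.22, Id2 from 1.29 to 1.76 and Id3 from 0.81 to 1.63. At 2 h Id1 ranged from -2.63 to -1.77. At 6 h Tcf4 ranged from -0.41 to -0.36 and Id1 from -2.58 to -1.15. At 12 h Id1 ranged from -1.76 to -1.29 and Id2 from 0.11 to 1.06. At 18 h Id2 ranged from 0.67 to 1.34 and Id3 from 1.27 to 2.13. At 24 h Tcf3 ranged from 0.22 to 0.29 and Id2 from 0.93 to 1.08. Genes called between the lines ranged from 318 to 1204 at 0 h, 804 to 2719 at 2 h, 2640 to 4971 at 6 h and 3769 to 5921 at 12 h. For the change from 0 h they ranged from 54 to 469 at 2 h, 584 to 1954 at 6 h, 1548 to 3924 at 12 h, 3077 to 5809 at 18 h and 4056 to 6404 at 24 h, from 3775 to 6217 for 2 to 24 h and from 388 to 2056 for 6 to 12 h. The Id to E protein balance moved by less than 1 SD of its group under quantile normalization. The reads behind each value are unknown, so what depth limits cannot be given.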
